A study of Schistocerca gregaria with 20 samples.

Results

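Ubx, abd-A, Dll and dac are transcription factor genes that give insect appendages their segmental identity and their parts, and their mRNA was followed here in the pleuropodia and hind legs of embryos of the desert locust Schistocerca gregaria. The 4 genes were chosen by name, each represented by 1 transcript, out of 12988 transcripts in the table. Ubx was transcript SgreTf0014307, abd-A was SgreTf0002957, Dll was SgreTf0013577 and dac was SgreTd0002755. Another Hox gene, abd-B, had no row in the table and was not analysed here.

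Hox genes assign identity to body segments. Ultrabithorax (Ubx) acts in insects in the last thoracic segment, which carries the hind legs, and in the first abdominal segment, which carries the pleuropodia, while abdominal-A (abd-A) acts in the abdomen. Distal-less (Dll) is a homeobox gene needed for outgrowth of the distal limb, and in Drosophila it is repressed in the abdomen by the Ubx and abd-A proteins. Dachshund (dac) encodes a nuclear protein needed in Drosophila for the middle segments of the leg. The pleuropodia begin as limb buds like those of the legs and become glands without leg segments.

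The embryos came from a laboratory colony kept in the gregarious phase, were untreated and carried no genetic change. Pleuropodia and hind legs were dissected side by side at 10 ages (days 4, 5, 6, 7, 8, 8-9, 10, 11, 12 and 13), and each of the 20 libraries was made from the mRNA of many pooled appendages, 1 library per tissue and stage. A value at a single stage thus has no replicate, and neighbouring days were grouped as immature (days 4-6), differentiating (days 7, 8 and 8-9, here days 7-9) and secreting (days 10-12) stages with 3 libraries per tissue, so that an SD or a p-value holds the change with age as well as the spread between libraries. In such bulk samples fewer cells expressing a gene and less mRNA per cell cannot be told apart.

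The table holds RPKM, reads scaled to the length of the transcript (in kb) and to the total reads of the library, so levels can be compared between genes of different length. The whole reads behind the values were recovered and gave a depth between 27890837 and 36884141 reads for the leg libraries and between 15186075 and 36027338 for the pleuropodium libraries, the lowest at day 8-9. Intervals given for a single library or a ratio of 2 libraries are exact 95% limits for the counting of reads and cover no other error. A second sequencing centre produced the day 8-9 libraries, in which Dll stood 2.73-fold above day 8 in pleuropodia and 3.14-fold above it in legs, so tests that use these libraries were also run without them. The tissue labels were checked on gland products that the study chose on these libraries. From days 7-9 on their means were higher in pleuropodia, for example the glycosidase NAG2 at 782 to 1286 RPKM in pleuropodia and 2.93 to 7.17 RPKM in legs of days 7-9. The exception at a single age was Chitinase 5 at day 10, at 49.1 RPKM in pleuropodia and 167 RPKM in legs. The 1 transcript of possible haemocytes, pro-phenol oxidase subunit 2, was at or below 0.0207 RPKM in both tissues at days 4-6, at 0.750 to 30.9 RPKM in pleuropodia and 0.332 to 24.7 RPKM in legs at days 7-9, and at 462 to 2540 RPKM against 112 to 187 RPKM at days 10-12. Its part in the results below was not tested.

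Ubx was the most abundant of the 4 genes in young pleuropodia and was nearly lost from them as the glands matured, while legs kept a high level until day 11. In pleuropodia it was at 177, 188 and 104 RPKM at days 4, 5 and 6, at 28.8, 13.8 and 25.1 RPKM at days 7, 8 and 8-9, at 3.17, 3.62 and 2.12 RPKM at days 10, 11 and 12, and at 2.21 RPKM at day 13. In legs it was at 59.0, 71.7 and 112 RPKM at days 4, 5 and 6, at 121, 100.1 and 139 RPKM at days 7, 8 and 8-9, at 87.1, 99.4 and 24.0 RPKM at days 10, 11 and 12, and at 19.1 RPKM at day 13. The pleuropodia were thus higher only at days 4 and 5, the tissues were close at day 6, and every later pleuropodium library was lower than the leg library of its age. Within the pleuropodia Ubx went from rank 333 of all transcripts at day 5 to rank 8371 at day 12, and the level at day 5 was 88.8-fold that of day 12 in the deposited RPKM and 41.8-fold after the scaling between libraries described below. The steepest steps between neighbouring stages in pleuropodia were from day 6 to day 7, with a level 3.59-fold lower, and from day 8-9 to day 10, with a level 7.92-fold lower, the second of which spans libraries of 2 sequencing centres. In legs the highest library was 7.27-fold above the lowest, or 3.95-fold after this scaling.

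abd-A was found almost only in young pleuropodia. Its transcript has a length of 852 bases, the shortest of the 4, and few reads stood behind most values. In pleuropodia it was at 17.2, 9.14 and 2.22 RPKM at days 4, 5 and 6 (506, 269 and 68 reads), at 1.20, 0.359 and 2.09 RPKM at days 7, 8 and 8-9 (35, 11 and 27 reads), at 0.913, 0.273 and 0.432 RPKM at days 10, 11 and 12 (26, 8 and 12 reads), and at 0.580 RPKM at day 13 (17 reads). In legs it ranged from 0 to 0.272 RPKM, with 0 to 8 reads in a library. All 10 pleuropodium libraries were above the leg library of the same age, and the share of all transcripts with all pairs on 1 side was not determined. At day 4 the ratio of pleuropodia to legs was 135 (interval 52.5 to 498, with 4 reads in legs), and at day 6, with no read in legs, the pleuropodia were at least 22.7-fold higher when legs are set at 3 reads, or 0.0974 RPKM. At days 8 and 11 the counting interval of the ratio included 1 (0.831 to 12.1 and 0.564 to 9.55), so no difference was detectable at this depth in those pairs.

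In the deposited RPKM Dll was higher in pleuropodia at the first and the last ages and lower between them. In pleuropodia it was at 42.3, 34.1 and 8.01 RPKM at days 4, 5 and 6, at 10.9, 8.42 and 23.0 RPKM at days 7, 8 and 8-9, at 9.53, 9.92 and 7.50 RPKM at days 10, 11 and 12, and at 5.37 RPKM at day 13. In legs it was at 33.4, 30.8 and 35.8 RPKM at days 4, 5 and 6, at 30.8, 20.1 and 63.0 RPKM at days 7, 8 and 8-9, at 16.1, 18.2 and 2.26 RPKM at days 10, 11 and 12, and at 1.91 RPKM at day 13. The pleuropodia were thus higher at days 4, 5, 12 and 13, and the ranges of the tissues over all ages overlapped. After the scaling between libraries described below the same ages were higher, but the tissues were close at 3 ages. Pleuropodia and legs were then at 25.2 and 24.8 RPKM at day 5, 12.1 and 13.5 RPKM at day 10, and 14.3 and 14.7 RPKM at day 11. At day 5 the ratio of pleuropodia to legs was only 1.11 (interval 1.04 to 1.19), at day 6 legs were 4.46-fold higher (interval 4.02 to 4.96), and at day 12 pleuropodia were 3.31-fold higher (interval 2.67 to 4.14). The late reversal came with a change in the legs: Dll was 8.06-fold lower there at day 12 than at day 11, against 1.32-fold in pleuropodia. The early separation came with a level 4.26-fold lower in pleuropodia at day 6 than at day 5, after which their level stayed between 5.37 and 10.9 RPKM except at day 8-9.

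dac was a leg transcript at every age, and from day 7 on it was nearly absent from the pleuropodia. In legs it was at 30.6, 46.5 and 74.3 RPKM at days 4, 5 and 6, at 82.3, 81.9 and 99.4 RPKM at days 7, 8 and 8-9, at 65.6, 72.8 and 21.3 RPKM at days 10, 11 and 12, and at 9.98 RPKM at day 13. In pleuropodia it was at 2.44, 3.31 and 0.269 RPKM at days 4, 5 and 6 (398, 541 and 46 reads), and from day 7 on it lay between 0 and 0.0982 RPKM, with 0 to 16 reads in a library. All 10 leg libraries were above the pleuropodia, and the ranges of the tissues did not overlap, since the lowest leg library, day 13, was above the highest pleuropodium library, day 5. How many of all transcripts separated the tissues in this way was not determined. Legs were 12.5-fold higher at day 4 (interval 11.3 to 13.9), 14.1-fold at day 5, 276-fold at day 6 (interval 207 to 377) and 1267-fold at day 8 (interval 708 to 2538). At day 8-9 no read fell on dac in pleuropodia, so that legs were at least 2383-fold higher when pleuropodia are set at 3 reads, or 0.0417 RPKM. In pleuropodia dac was 12.3-fold lower at day 6 than at day 5, while in legs it was 1.60-fold higher.

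**Figure D1:**
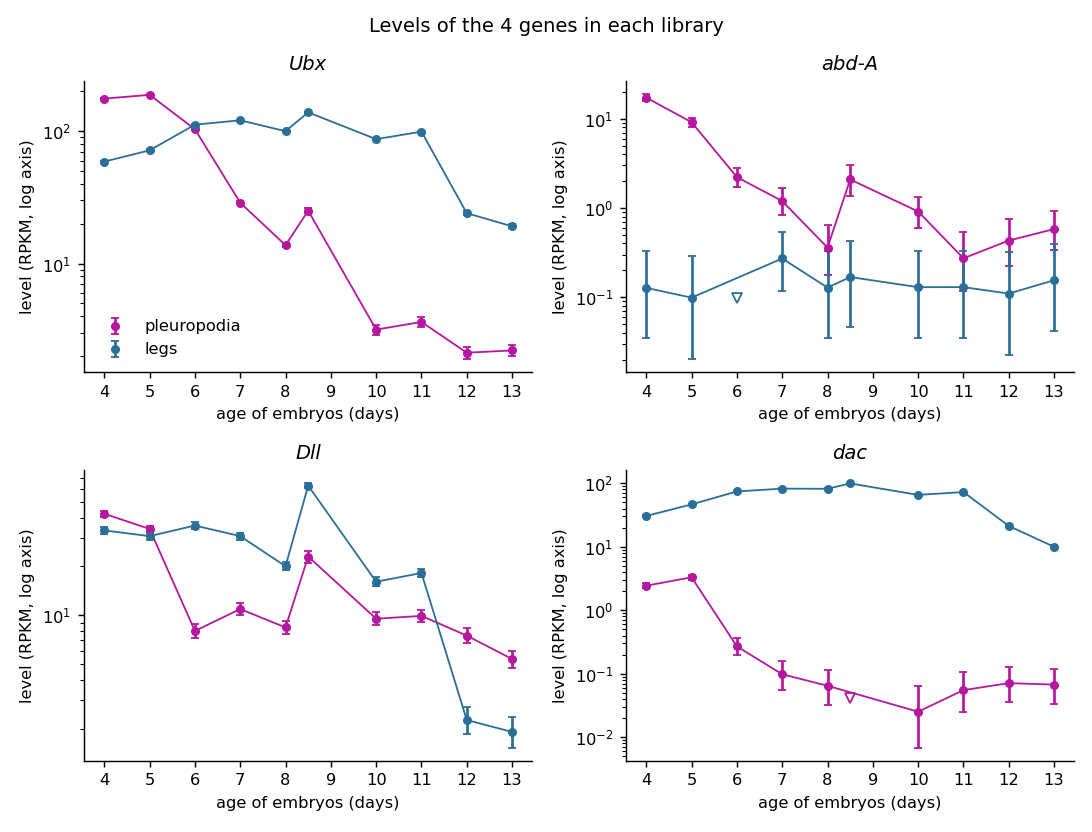
RPKM of each gene (log axis) against age in days in pleuropodia (magenta) and legs (blue), 1 library per point, with day 8-9 drawn at 8.5. Bars are exact 95% intervals for the counting of reads, and open triangles mark the 2 libraries with no read (abd-A in legs of day 6, dac in pleuropodia of day 8-9) at the level of 3 reads. Ubx lines cross between days 5 and 6, Dll lines cross between days 5 and 6 and again between days 11 and 12, and the lines of abd-A and dac do not cross.

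The step between days 5 and 6 was shared by abd-A, Dll and dac in pleuropodia, where the level was 4.13-fold, 4.26-fold and 12.3-fold lower, whereas Ubx was 1.82-fold lower on that day and 3.59-fold lower again on the next. In legs over the same day Dll was 1.16-fold higher and Ubx 1.56-fold higher. The second shared step was in legs from day 11 to day 12, where Ubx was 4.13-fold, dac 3.42-fold and Dll 8.06-fold lower. These are ratios of single libraries, and scaling bears on them: the trimmed mean factor (TMM) of the legs was between 1.17 and 1.26 from day 4 to day 11 but 0.914 at day 12 and 0.635 at day 13, the RPKM being divided by it. After this scaling Ubx in legs was at 79.8 RPKM at day 11 and 26.3 at day 12, and Dll at 14.7 and 2.48. In pleuropodia the factor was 1.35 at day 5 and 1.13 at day 6. After scaling abd-A there was at 6.76 RPKM at day 5 and 1.95 at day 6, Dll at 25.2 and 7.06, and dac at 2.45 and 0.238. How many of all transcripts took steps of this size was not determined.

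Ratios between genes within a library do not depend on such scaling. In legs Ubx and dac kept to one another throughout, with Ubx 1.13-fold to 1.93-fold above dac in all 10 libraries, although their own levels spanned 7.27-fold and 9.96-fold (3.95-fold and 5.41-fold after scaling). In pleuropodia Ubx was above dac 57.0-fold at day 5, 384-fold at day 6 and 29.8-fold at day 12, and this ratio could not be formed at day 8-9. The ratio of Ubx to Dll separated the tissues in another way. It was 1.77 at day 4, 3.14 at day 6 and 10.6 at day 12 in legs, and 4.18 at day 4, 12.9 at day 6 and 0.283 at day 12 in pleuropodia, so that Dll was above Ubx in the 4 pleuropodium libraries of days 10 to 13 and in no leg library. abd-A was above dac in all 10 pleuropodium libraries and below it in all 10 leg libraries.

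**Figure D2:**
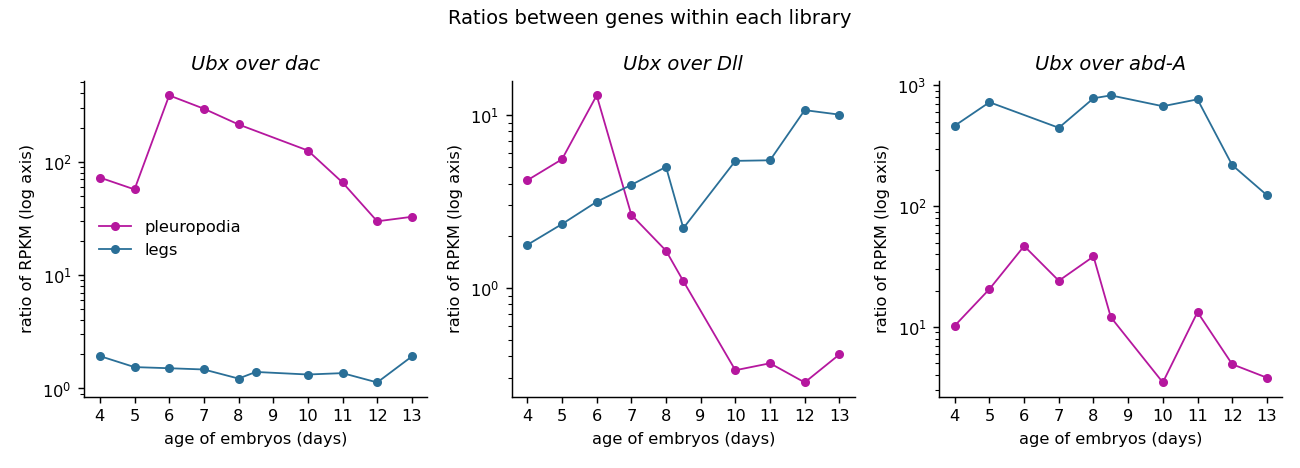
Ratio of the RPKM of Ubx to that of dac, Dll and abd-A (log axes) within each library against age in days, in pleuropodia (magenta) and legs (blue). A library in which the second gene had no read is left out. The ratio of Ubx to dac stays between 1.13 and 1.93 in legs, and the ratio of Ubx to Dll in pleuropodia is highest at day 6, at 12.9, and lowest at day 12, at 0.283.

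The tissues were then compared within each period by limma on log2(RPKM + 0.5) after TMM scaling, with p-values adjusted by the Benjamini-Hochberg method over all transcripts that reached 1 RPKM in at least 3 of the libraries, and an adjusted p under 0.05 as the threshold. Differences are log2 values of pleuropodia minus legs with their standard error (SE), and the added 0.5 RPKM understates them for genes near 0. At days 4-6 none of the 4 genes passed limma's test at the adjusted threshold, beside 0.121% of all transcripts tested. An unadjusted p under 0.05 was found for 3 of 4. The share of all transcripts with such an unadjusted p was not determined, so this count has no background to be read against. The mean level of Ubx was 156 ± 45.9 RPKM in pleuropodia and 80.9 ± 27.7 RPKM in legs (SD, n = 3), with overlapping groups, and the difference was 0.98 (SE 0.28, limma adjusted p = 0.61). dac was at 0.269 to 3.31 RPKM in pleuropodia against 50.4 ± 22.2 RPKM in legs (SD, n = 3), with a difference of -4.54 (SE 0.62, limma adjusted p = 0.13). For abd-A, which reached the minimum level only through the pleuropodia, the difference was 3.77 (SE 0.64, limma adjusted p = 0.27). The groups of dac did not overlap, nor did those of abd-A, where entry through the pleuropodia alone built this in. The share of all transcripts without overlap was not determined, here or in the later periods. For Dll the difference was -0.51 (SE 0.55, 95% interval -1.85 to 0.83, limma adjusted p = 0.75), and without the pleuropodia of day 6 it was 0.15.

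At days 7-9 Ubx was lower in pleuropodia, 1 of 2 called among the genes that reached the minimum level in both tissues (Ubx and Dll), beside 46.7% of all transcripts called in either direction and 21.4% called lower. Ubx had a mean of 22.6 ± 7.84 RPKM in pleuropodia, 5.32-fold below that of legs, and a difference of -2.14 (SE 0.25, limma adjusted p = 0.00069, n = 3). dac had a mean of 0.0543 ± 0.0499 RPKM against 87.8 ± 9.99 RPKM and a difference of -7.15 (SE 0.18, n = 3). dac reached the minimum level only through the legs, so a difference was built into its entry and it is not counted. With no minimum its limma adjusted p was 5.1e-05, and without the day 8-9 pair, which gave no value at the minimum, the difference with no minimum was -6.97 (limma adjusted p = 0.0061). The authors had already removed weakly expressed transcripts from the table. Values with no minimum, here and below, may therefore hold the same built-in difference. The 3 libraries of each tissue did not overlap for Ubx, nor for dac, where entry through the legs alone built this in. Dll was at 14.1 ± 7.81 RPKM in pleuropodia and 38.0 ± 22.4 RPKM in legs, and its difference of -1.07 did not pass (SE 0.51, limma adjusted p = 0.13). In these stages libraries of the same age deviated together, and with age as a block Dll passed with the same difference (SE 0.12, limma adjusted p = 0.0020). This stands beside 7306 of 10983 transcripts called with the block, 3665 of them lower, so most transcripts passed. The pleuropodia were lower than the legs of equal age in 3 of 3 pairs, and without the day 8-9 pair the difference was -1.02 (limma adjusted p = 0.026, or 0.057 with no minimum level). Without that pair 3872 of 9502 transcripts were called at the minimum level, 1871 of them lower. abd-A did not reach the minimum level and was not tested. With no minimum its difference was 1.31 (SE 0.41, limma adjusted p = 0.052).

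At days 10-12 Ubx was again lower in pleuropodia, 1 of 2 called among the genes that reached the minimum level in both tissues, beside 45.1% of all transcripts called in either direction and 20.7% called lower. Ubx was at 2.97 ± 0.770 RPKM in pleuropodia against 70.2 ± 40.4 RPKM in legs, a 23.6-fold difference of means (14.3-fold after scaling) and a log2 difference of -3.59 (SE 0.41, limma adjusted p = 0.0011, n = 3). dac was at 0.0505 ± 0.0233 RPKM against 53.2 ± 27.9 RPKM, with a log2 difference of -6.10 (SE 0.34, n = 3). It entered only through the legs and is again not counted, and with no minimum its limma adjusted p was 0.00019. The groups of Ubx did not overlap, nor did those of dac, where this was again built in. Dll did not differ beyond its spread (8.98 ± 1.30 against 12.2 ± 8.67 RPKM, log2 difference 0.56, SE 0.60, 95% interval -0.91 to 2.02, limma adjusted p = 0.48). Its direction depended on the scaling and on 1 library, being -0.014 without TMM and -0.15 without the legs of day 12. For abd-A, untested at the minimum level, the difference with no minimum was 0.89 (SE 0.26, limma adjusted p = 0.043) on levels of 0.273 to 0.913 RPKM in pleuropodia and 0.110 to 0.130 RPKM in legs.

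Over all 10 stages, with age as a block, Ubx was lower in pleuropodia, 1 of 2 called among the genes that reached the minimum level in both tissues, beside 52.0% of all transcripts called, 27.6% higher and 24.4% lower. abd-A reached it only through pleuropodia and dac only through legs, so both had to differ somewhere to be tested. They are given with no minimum and not counted. The authors' own removal of weakly expressed transcripts remains in these values, so they are not free of such entry. The difference was 1.82 for abd-A (SE 0.41, limma adjusted p = 0.0049, higher in 10 of 10 pairs) and -5.79 for dac (SE 0.42, limma adjusted p = 2.6e-05, lower in 10 of 10 pairs). The share of all transcripts with 10 of 10 pairs on 1 side was not determined. For Ubx it was -1.71 (SE 0.57, limma adjusted p = 0.028), with 7 of 10 pairs lower after scaling and 8 before, the pair of day 6 changing side. This call on Ubx did not hold without the day 8-9 pair (-1.68, limma adjusted p = 0.053), without the pairs of days 12 and 13 (-1.42, limma adjusted p = 0.10) or without the block (limma adjusted p = 0.054). Dll had a difference of -0.15 (SE 0.36, 95% interval -0.94 to 0.64, limma adjusted p = 0.74).

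**Figure D3:**
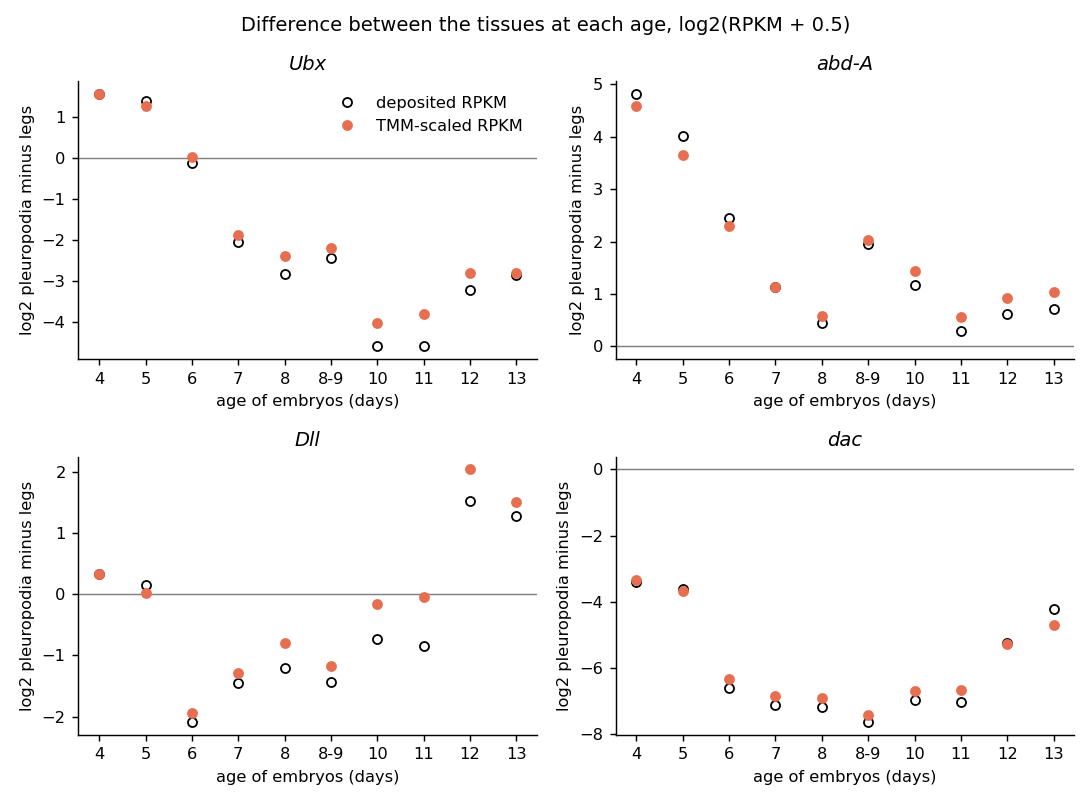
Difference between the tissues at each age, as log2(RPKM + 0.5) of pleuropodia minus that of legs, for the deposited RPKM (open circles) and after TMM scaling (filled circles), 1 pair of libraries per point and an axis of its own for each gene. Ubx is above 0 at days 4 and 5 and below it from day 7 on, dac is below 0 and abd-A above 0 at all 10 ages, and Dll is above 0 at days 4, 5, 12 and 13.

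Whether the difference between the tissues itself changed was tested on the 18 libraries of days 4 to 12 in 6 groups. Among Ubx and Dll, which reached the minimum level in both tissues, the difference moved toward the legs for Ubx from days 4-6 to days 7-9. This stands beside 14.6% of all transcripts called and 3.93% called in this direction. The change was -3.09 for Ubx (SE 0.50, limma adjusted p = 0.00070), -2.59 for dac (SE 0.64, limma adjusted p = 0.013) and -2.30 for abd-A (SE 0.73, limma adjusted p = 0.048). In the estimates the change turned the direction for Ubx, narrowed an excess in pleuropodia for abd-A and widened a deficit for dac. The difference at days 4-6, from which each change started, had not passed for any of these genes. abd-A and dac had entered through 1 tissue each and are not counted. With no minimum level the adjusted p from limma was 0.0505 for abd-A, on the other side of the threshold, and 0.015 for dac. The call on dac did not hold without the day 8-9 pair (-2.46, limma adjusted p = 0.065), and that on abd-A was lost when any of 10 of the 12 libraries concerned was left out, the other two being the pleuropodia of day 6 and of day 8-9. Dll had a change of -0.53 (SE 0.89, limma adjusted p = 0.75). From days 7-9 to days 10-12 none of the 4 genes passed limma's test at the adjusted threshold, beside 9.15% of all transcripts. An unadjusted p under 0.05 was found for 1 of 4, and the share of all transcripts with one was again not determined. Ubx had a further change of -1.45 (SE 0.50, limma adjusted p = 0.097), which passed without the legs of day 12 (-1.92, limma adjusted p = 0.0068), and Dll a change of 1.66 (SE 0.89, limma adjusted p = 0.31).

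A slope with age was fitted in each tissue over days 4 to 13 on the same log2 values. In pleuropodia Ubx declined with age, by -0.66 log2 units per day (SE 0.07, limma adjusted p = 4.8e-07). This stands beside 56.8% of all transcripts called and 26.8% called as declining. abd-A reached the minimum level only through pleuropodia and dac only through legs, so they are not counted. Their slopes were -0.32 for abd-A (SE 0.07, limma adjusted p = 0.00072) and -0.22 for dac (SE 0.08, limma adjusted p = 0.028). With no minimum level both passed as well (limma adjusted p = 0.00076 and 0.029). From day 7 on dac lay at or below 0.0982 RPKM in pleuropodia, under the added 0.5 RPKM. With 1 RPKM added its slope did not pass (-0.15, limma adjusted p = 0.074). Dll had a slope of -0.11 in pleuropodia (SE 0.08, limma adjusted p = 0.29) and passed only without TMM scaling (-0.24, limma adjusted p = 0.030). In legs Dll was the 1 of 4 genes called, beside 51.6% of all transcripts called and 26.4% called as declining. Its slope was -0.34 (SE 0.08, limma adjusted p = 0.0023), but it rested on the last libraries, being -0.11 without the pairs of days 12 and 13 (limma adjusted p = 0.48). The slopes in legs of Ubx (-0.10, SE 0.07, limma adjusted p = 0.25) and dac (-0.07, SE 0.08, limma adjusted p = 0.46) did not pass and turned to 0.10 and 0.16 without those pairs, which again did not pass (limma adjusted p = 0.35 and 0.20).

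Of Ubx and Dll, the genes that reached the minimum level in both tissues, the slopes differed between the tissues for Ubx (-0.56 per day, SE 0.10, limma adjusted p = 0.00039). This stands beside 29.6% of all transcripts called and 14.0% called in this direction. abd-A reached the minimum level only through pleuropodia and is not counted. With no minimum its difference was -0.35 (SE 0.10, limma adjusted p = 0.013). Its slope in legs was 0.02 (SE 0.07) on 0 to 8 reads in a library, so the difference follows its decline in pleuropodia. Without the pairs of days 12 and 13 both differences passed (Ubx -0.88, limma adjusted p = 4.1e-05, and abd-A -0.51, limma adjusted p = 0.0100). In that setting, added after seeing the data, 4183 of 11867 transcripts were called, 2234 of them in this direction. dac reached the minimum level only through legs and is not counted either. It did not pass over all ages (-0.14, SE 0.11, limma adjusted p = 0.37, and 0.37 with no minimum) and passed without those pairs (-0.52, limma adjusted p = 0.0051). From day 7 on its level in pleuropodia lay under the added 0.5 RPKM, which limits its slope there. For Dll the difference of slopes was 0.23 (SE 0.12, 95% interval -0.01 to 0.48, limma adjusted p = 0.15) over all ages and -0.015 without those pairs.

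**Figure D4:**
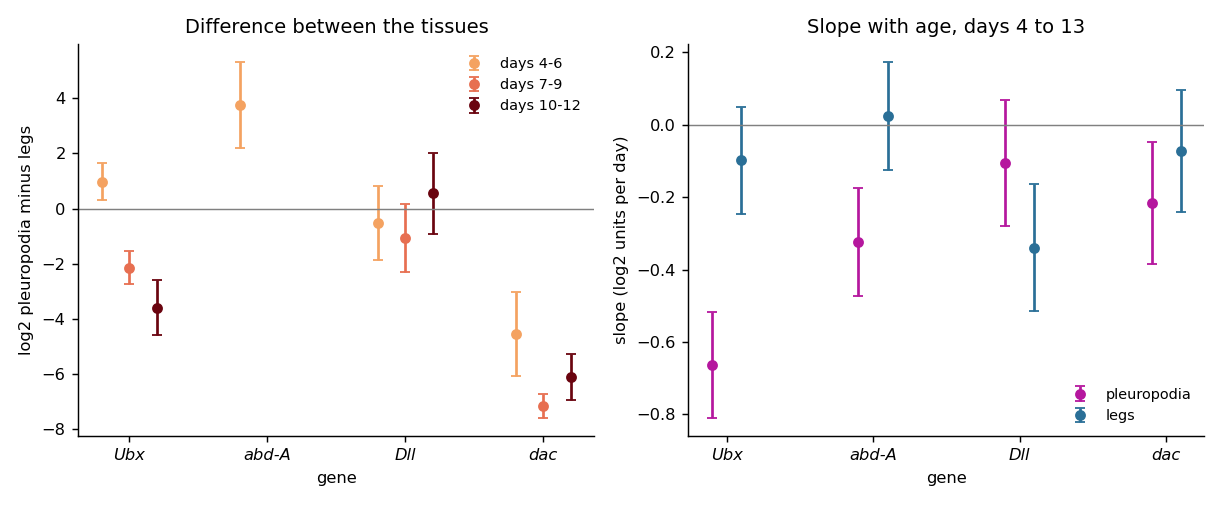
Left, limma differences of pleuropodia minus legs in log2 units at days 4-6, 7-9 and 10-12 with 95% intervals (3 libraries per tissue, abd-A not tested after days 4-6). Right, slopes per day in pleuropodia (magenta) and legs (blue) with 95% intervals, 10 libraries each. Ubx goes from 0.98 to -3.59 over the periods, and only the interval of Dll lies wholly below 0 among the slopes in legs.

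The transcripts whose pattern was most like that of each gene were sought among 12068 transcripts with a mean of at least 1 RPKM, by Pearson's r of the scaled log2 values over the 20 libraries, which all transcripts share. Nearest to Ubx was SgreTa0002437 (r = 0.980), which was at 2.46 to 31.8 RPKM in legs and 0.0634 to 25.3 RPKM in pleuropodia. Nearest to dac was SgreTd0013822 (r = 0.976), at 22.8 to 279.6 RPKM in legs and 0.152 to 14.8 RPKM in pleuropodia. Nearest to Dll was SgreTa0015660 (r = 0.957), at 4.99 to 33.7 RPKM in legs and 8.89 to 29.2 RPKM in pleuropodia. For abd-A r was lowest: its nearest transcript, SgreTa0015122, had r = 0.800 and was at 9.07 to 153 RPKM in pleuropodia and 0.0484 to 0.306 RPKM in legs. The r of abd-A rests on 0 to 8 reads in each leg library, and it was 0.856 with 0.1 RPKM added. How far the counting of few reads lowered it was not tested. An r over 0.9 was found in 192 transcripts for Ubx, 104 for dac, 41 for Dll and 0 for abd-A. The 4 nearest transcripts carry no gene name in the sources used here.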

How the data were processed

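mRNA was sequenced from pleuropodia and hind legs, 1 library per tissue and stage. The authors mapped reads with Bowtie2 (version 2.2.5) to their own embryonic transcriptome, removed weakly expressed transcripts and deposited RPKM values, although the table is labelled as counts. For the day 8-9 pair, sequenced at a second centre, the study's methods state that mates were joined and its labels that 1 direction was used. A second deposited table holds the authors' comparison of days 10-12. Its fold changes and probabilities were not used, only its mean RPKM, to settle the unit.

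Reads were recovered as whole multiples of 1 read's RPKM, allowing lengths from 200 bases, for 12985 of 12988 transcripts, lengths being kept only where all values were whole within 0.05 reads. Count models were not run. RPKM were scaled by TMM (30% of ratios and 5% of abundances trimmed) and log2(RPKM + 0.5) was fitted by limma-trend (limma 3.58.1, R 4.3.3) and tested on simulated data. Reads were recovered and intervals computed in Python 3.11.15 (scipy 1.17.1, numpy 2.4.6, pandas 2.3.3), and figures drawn with matplotlib 3.10.9. The residuals of same-aged libraries correlated between the tissues at 0.43, 0.45 and 0.69 at days 7, 8 and 8-9. They correlated at 0.48, -0.06 and 0.34 at days 4, 5 and 6, and at 0.22, 0.01 and 0.20 at days 10, 11 and 12. Values near 0 thus occurred at days 5 and 11 and at no age of days 7-9. No threshold was set for pairing, and the main tests within periods did not use it. Leaving out the pairs of days 12 and 13, and the day 8-9 pair with no minimum level, was added after seeing the data. Genes named were the 4 members and the transcript nearest each. The members and lists were chosen with earlier results of these data known. No sequence or coordinates are given, the table having no link to a genome here. Sample labels name no separate animals, and p-values measure the spread between these libraries.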

Additional observations from a re-analysis of the deposited data

Results flagged for a closer look

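The effect of tissue differed between ages for Ubx, as tested on that difference. Of all transcripts, 14.6% were called for the change between these periods and 29.6% for the difference of slopes. abd-A and dac also passed below, but they reached the minimum level only through pleuropodia and only through legs and are not counted. With no minimum level the limma adjusted p of the change between days 4-6 and days 7-9 was 0.0505 for abd-A and 0.015 for dac. Between days 4-6 and days 7-9 the log2 difference of pleuropodia minus legs changed by -3.09 for Ubx (SE 0.50, limma adjusted p = 0.00070), by -2.30 for abd-A (SE 0.73, limma adjusted p = 0.048) and by -2.59 for dac (SE 0.64, limma adjusted p = 0.013). The slope with age was lower in pleuropodia than in legs by -0.56 log2 units per day for Ubx (SE 0.10, limma adjusted p = 0.00039) and by -0.35 for abd-A (SE 0.10, limma adjusted p = 0.013). The sequencing centre of day 8-9 was the same for both tissues, and without that pair the change between periods had a limma adjusted p of 0.0066 for Ubx, 0.0499 for abd-A and 0.065 for dac. On leaving out 1 library the call on abd-A was lost in 10 of 12 cases, and that on dac or Ubx in 0 of 12.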

How the results depend on the processing

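Of 219 values of the 4 genes under other settings 201 kept their direction and their side of the threshold, as did 132 of 147 with 1 library left out. The cause was not tested for any that did not. Dll at days 4-6 ranged from -0.94 to 0.15 on leaving out a library, at days 7-9 from -1.49 (past the threshold) to -0.60, and at days 10-12 from -0.15 to 0.87. With the replicate block it passed at days 7-9 (-1.07, limma adjusted p = 0.0020), beside 7306 of 10983 transcripts called. It also passed there without the day 8-9 pair (-1.02), beside 3872 of 9502 called. Without TMM it was -0.014 at days 10-12 and its slope in pleuropodia passed (-0.24). Ubx over all stages missed the threshold without the replicate block (-1.71), without the day 8-9 pair (-1.68) and without the pairs of days 12 and 13 (-1.42). The change from days 4-6 to 7-9 missed it for abd-A with 1 RPKM added (-1.91), with no filter (-2.30, limma adjusted p = 0.0505) and on leaving out libraries (-3.00 to -1.69), and for dac without the day 8-9 pair (-2.46). The change from days 7-9 to 10-12 ranged from -1.92 to -1.18 for Ubx and from -0.68 to 0.12 for abd-A, which was 0.12 without the day 8-9 pair. The slope of dac in pleuropodia missed it with 1 RPKM added (-0.15), and in legs it was 0.026 without the day 13 pair. Without the pairs of days 12 and 13 the slopes in legs were 0.10 for Ubx, -0.11 for Dll and 0.16 for dac, and the slope differences -0.015 for Dll and -0.52 for dac. With 0.1 RPKM added, the transcript nearest dac was SgreTa0008750 (r = 0.979). The replicate block changed no other call on the 4 genes. abd-A at days 4-6 and dac at days 7-9 and 10-12 gave no value where a library of the tissue that expressed them, or the day 8-9 pair, was left out, since too few libraries then reached 1 RPKM.

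Of all transcripts, 12 were called at days 4-6, 7 with 0.1 RPKM added, 3 with no filter, 0 with the replicate block and 0 to 108 on leaving out a library. Leaving out a library gave 3267 to 4124 of 5134 calls at days 7-9, 2471 to 6409 against 5161 at days 10-12 and 612 to 1439 against 1121 for the change from days 7-9 to 10-12. Over all stages 4138 against 6470 were called without the replicate block, and 2877 against 6421 slopes in legs without the pairs of days 12 and 13. Without TMM the median of all transcripts was -0.32 at days 7-9, -0.55 at days 10-12 and -0.29 over all stages, and higher and lower calls went from 2779 and 2355 to 2069 and 3433, from 2790 and 2371 to 1571 and 3692, and from 3431 and 3039 to 2273 and 4654. For the changes between periods they went from 1307 and 481 to 988 and 640 and from 369 and 752 to 200 and 958. For the slopes they went from 3726 and 3333 to 1817 and 5988 in pleuropodia, from 3137 and 3284 to 2222 and 4797 in legs, and from 1936 and 1743 to 809 and 2090 for their difference. Depth limited abd-A in legs and dac in pleuropodia after day 6, which rest on at most 16 reads a library.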
